A study of Rattus norvegicus with 9 samples.

Results

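Glucose handling in the rat liver was described through 8 genes of glycolysis and gluconeogenesis, namely G6pc, Pck1, Fbp1, Slc2a2, Pklr, Ldha, Hk1 and Hk2, of 16292 gene symbols on the array. Every probe set whose gene symbol field names one of them was taken, which gave 16 of 31099 probe sets. Where a gene had several, the brightest on average gave its value and the others are shown beside it. A probe set is a group of short oligonucleotides that together read 1 or more transcripts. Livers came from male Sprague–Dawley rats, 3 in each of 3 groups and 1 array per rat. The vehicle group is the control group, and what its rats were injected with is not given in the sources used here. The CCl4 group received carbon tetrachloride, a hepatotoxin mixed with olive oil, by intraperitoneal injection 2 times a week over 8 weeks to produce liver fibrosis. The CCl4+Rot group received the same CCl4 and also rottlerin, an activator of BK potassium channels, at 2.5 mg/kg body weight from 2 weeks after the first CCl4 injection. No group received rottlerin without CCl4, so the effect of rottlerin on an uninjured liver is not part of this design. Whether the rats had been fed or fasted before sampling is not given in the sources used here, and several of these genes respond to feeding.

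The liver both stores and makes glucose. In gluconeogenesis, lactate, alanine and glycerol are turned into glucose along the reversible steps of glycolysis, and the irreversible steps are bypassed by enzymes of their own. PEPCK (Pck1) makes phosphoenolpyruvate, fructose-1,6-bisphosphatase (Fbp1) removes a phosphate further along, and glucose-6-phosphatase (G6pc) releases free glucose, which crosses the hepatocyte membrane through the transporter GLUT2 (Slc2a2). In the opposite direction hexokinases (Hk1, Hk2) trap glucose as glucose 6-phosphate, pyruvate kinase (Pklr) makes pyruvate, and lactate dehydrogenase A (Ldha) interconverts pyruvate and lactate. Hk1 and Hk2 are low in healthy hepatocytes.

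The 250 bases before and 50 after the transcription start of 4 members are printed here, since Pck1 and G6pc are standard examples of hormone-controlled promoters, Slc2a2 had the smallest p among the members present on all arrays, and Ldha is the lactate enzyme. All are RefSeq sequences of build GRCr8, which held a promoter for 8 of 8 members matched by gene identifier (G6pc is listed as G6pc1). Capitals mark the letters searched on both strands. The core of the cAMP response element was searched as ACGTCA. An E-box was searched as CACGTG, and the core of the hypoxia response element, which every such E-box contains, as ACGTG. The core bound by forkhead factors was searched as TGTTT, and a TATA box as TATAAA. The positions were chr10:86807409-86807708 (+) for G6pc, chr3:182348322-182348621 (+) for Pck1, chr2:113540120-113540419 (+) for Slc2a2 and chr1:106507842-106508141 (+) for Ldha.
G6pc: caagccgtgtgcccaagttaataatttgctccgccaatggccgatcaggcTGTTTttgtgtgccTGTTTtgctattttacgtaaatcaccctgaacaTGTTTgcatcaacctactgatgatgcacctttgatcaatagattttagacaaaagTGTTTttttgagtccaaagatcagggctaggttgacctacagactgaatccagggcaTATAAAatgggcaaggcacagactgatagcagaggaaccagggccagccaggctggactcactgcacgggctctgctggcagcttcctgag
Pck1: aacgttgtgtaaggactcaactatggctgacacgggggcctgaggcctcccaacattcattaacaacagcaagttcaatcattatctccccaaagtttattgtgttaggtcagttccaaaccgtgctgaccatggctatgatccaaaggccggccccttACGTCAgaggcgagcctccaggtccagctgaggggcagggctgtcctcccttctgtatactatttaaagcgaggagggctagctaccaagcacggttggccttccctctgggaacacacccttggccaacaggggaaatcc
Slc2a2: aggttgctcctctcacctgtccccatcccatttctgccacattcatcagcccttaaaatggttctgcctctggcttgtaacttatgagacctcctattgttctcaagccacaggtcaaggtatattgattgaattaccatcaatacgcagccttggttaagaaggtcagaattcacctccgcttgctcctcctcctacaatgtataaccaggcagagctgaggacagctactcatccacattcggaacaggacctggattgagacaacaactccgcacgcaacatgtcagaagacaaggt
Ldha: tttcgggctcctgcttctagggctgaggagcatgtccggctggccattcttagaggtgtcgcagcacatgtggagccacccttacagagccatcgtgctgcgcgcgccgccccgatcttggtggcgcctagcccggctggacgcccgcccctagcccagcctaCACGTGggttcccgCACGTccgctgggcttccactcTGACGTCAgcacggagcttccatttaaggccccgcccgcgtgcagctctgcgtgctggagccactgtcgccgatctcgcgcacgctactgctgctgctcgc
The G6pc window held the forkhead core 4 times, between 200 and 94 bases before the start, and the TATA box once. The Pck1 window held the cAMP response core once, from 91 to 86 bases before the start. The Ldha window held the E-box once, the hypoxia core 3 times with both strands of the E-box counted, and the cAMP response core 2 times as overlapping matches on opposite strands. The Slc2a2 window held none of these letter runs. Among 33469 RefSeq promoters of the same length, the cAMP response core was in 7.94%, the E-box in 6.42%, the hypoxia core in 19.3%, the forkhead core in 51.9% and the TATA box in 14.2%, so the forkhead core is common in any such window. These matches describe the letters and were not tested against the array values.

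The values are log2 signals as deposited, so a difference of 1 is a 2-fold difference, and the number of arrays limits their precision. A detection call (present, marginal or absent) accompanies each signal. Chromosome positions given with the genes below are those deposited for the probe sets. Their build is not given in the sources used here, and they differ from the GRCr8 positions above. Of the 8 genes, 6 were called present on all 9 arrays, and the hexokinases Hk1 and Hk2 were called present on 1 array each. Hepatocyte identity of the tissue was clear in all groups, since all 9 hepatocyte marker genes measured were present on every array. CCl4 replicate 3 stood apart from the other arrays, with 12714 probe sets called present against 15550 to 16849 and a median log2 signal of 7.81 against 6.79 to 7.01. Bright probe sets were dimmer on this array than on the other 8. For the 377 probe sets with a mean log2 signal of 13 to 14 the median difference was -0.36, with a 10th percentile of -0.67 and a 90th of -0.11. G6pc, Slc2a2 and Fbp1 lie in this range and Pck1 and Ldha above it, so differences of the members that include this array are also given without it. Between CCl4 and vehicle the median difference was 0.18 over all 31042 probe sets tested, but -0.01 over the 11231 that were present on every array.

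G6pc had the lowest single values relative to vehicle of all members. The log2 signals were 13.69, 13.78 and 13.58 in vehicle rats, 13.42, 13.48 and 11.74 in CCl4 rats and 12.89, 13.22 and 12.83 in CCl4+Rot rats. Every CCl4 and every CCl4+Rot array was below every vehicle array, and CCl4 replicate 3 was far below the rest. The mean was 1.75-fold lower with CCl4 than with vehicle, a log2 difference of -0.81 (SE 0.45, 95% confidence interval -1.84 to 0.23, limma adjusted p = 0.496). With CCl4 replicate 3 left out it was -0.24 (SE 0.17), so most of the difference rests on that array. CCl4+Rot and vehicle differed by -0.71 (SE 0.45, limma adjusted p = 0.790). Leaving out CCl4 replicate 3 alters only the estimate of the spread in this last comparison, and the SE then was 0.15 (95% confidence interval -1.08 to -0.34, limma adjusted p = 0.208). The robust limma fit, in which the spread follows the signal, called it without that array (adjusted p = 0.0228), a setting chosen after seeing the data.

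The rottlerin comparison of G6pc depended on single arrays. CCl4+Rot minus CCl4 was 0.10 (SE 0.45, 95% confidence interval -0.94 to 1.14) over all arrays. Without CCl4 replicate 3 it turned to -0.47 (SE 0.17, 95% confidence interval -0.89 to -0.06, limma adjusted p = 0.749), and all 3 CCl4+Rot arrays then lay below the remaining CCl4 arrays. It was -0.022 with CCl4+Rot replicate 5 left out instead. The direction of the rottlerin difference in G6pc is therefore not settled by these arrays. On CCl4 replicate 3 itself the gene was 1.62 log2 below the mean of the other 8 arrays, beyond the 10th percentile of -0.67 for probe sets of that brightness.

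All 4 probe sets that name G6pc also name its neighbours Aoc3 and Psme3, so its values carry an uncertainty of identity. The brightest probe set and the second, which start at nearly the same place (chr10:89084052-89094258 and chr10:89084101-89093919, + strand, build not given in the sources used here), lie beyond the probe sets that name Aoc3 alone and before the first that names Aarsd1. In RefSeq the order of these genes is Psme3, Aoc3, G6pc1 and Aarsd1, so the bright pair sits in the place of G6pc. The third lies on the other side of Aoc3, in the place of Psme3, and the fourth is listed on chromosome 6. The second probe set read 13.09, 13.15 and 12.93 in vehicle, 12.72, 12.75 and 10.37 in CCl4 and 11.89, 12.39 and 11.86 in CCl4+Rot rats. Both bright probe sets put the arrays in nearly the same pattern (Pearson r = 0.9994 over 9 arrays and 0.9983 without CCl4 replicate 3, as a description). Differences were wider in the second, at -1.11 for CCl4 minus vehicle and -1.01 for CCl4+Rot minus vehicle. The remaining probe sets ranged from 9.36 to 9.88 and from 8.91 to 9.19 and showed no such drop.

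Slc2a2, which encodes the hepatic glucose transporter GLUT2 (chr2:134112904-134144457, + strand), gave 13.83, 14.08 and 14.05 in vehicle, 13.35, 13.59 and 12.89 in CCl4 and 13.68, 13.78 and 13.44 in CCl4+Rot rats. All CCl4 arrays were below all vehicle arrays, and the CCl4+Rot arrays lay between, overlapping CCl4 but not vehicle. The mean was 1.64-fold lower with CCl4, a log2 difference of -0.71 (SE 0.22, 95% confidence interval -1.22 to -0.20, limma adjusted p = 0.291). This interval leaves out 0, yet the difference did not pass after adjustment over all probe sets. With CCl4 replicate 3 left out it was -0.52 (SE 0.18, 95% confidence interval -0.95 to -0.09), and the groups still did not overlap. CCl4+Rot was 0.36 above CCl4 (SE 0.22, limma adjusted p = 0.765) over all arrays and 0.17 above it without that array.

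Fbp1 (chr17:391302-412328) is listed on the - strand in the deposit and on the + strand in GRCr8. It read 14.11, 14.13 and 14.01 in vehicle, 13.92, 13.88 and 13.32 in CCl4 and 13.85, 13.91 and 13.70 in CCl4+Rot rats. Both CCl4 groups lay entirely below vehicle, and they overlapped each other. The CCl4 difference from vehicle was -0.38 (SE 0.20, limma adjusted p = 0.482), and -0.18 (SE 0.14) without CCl4 replicate 3. CCl4+Rot minus vehicle was -0.26 (SE 0.20, limma adjusted p = 0.845). CCl4+Rot minus CCl4 was 0.11 (SE 0.20) and turned to -0.082 (SE 0.14) without that array.

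Pck1, the enzyme that commits carbon to gluconeogenesis (chr3:177284258-177284720, + strand), read 14.84, 14.99 and 15.10 in vehicle, 14.89, 14.74 and 14.07 in CCl4 and 14.86, 14.83 and 14.84 in CCl4+Rot rats. The groups overlapped in all comparisons, and the CCl4+Rot rats were nearly equal to each other (SD 0.02, n = 3). The CCl4 difference from vehicle was -0.41 (SE 0.23, 95% confidence interval -0.95 to 0.13, limma adjusted p = 0.503) and -0.16 (SE 0.15) without CCl4 replicate 3. CCl4+Rot minus CCl4 was 0.27 (SE 0.23) over all arrays and 0.027 (SE 0.15, 95% confidence interval -0.33 to 0.38) without it, and 0.44 with CCl4 replicate 1 left out instead.

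**Figure D1:**
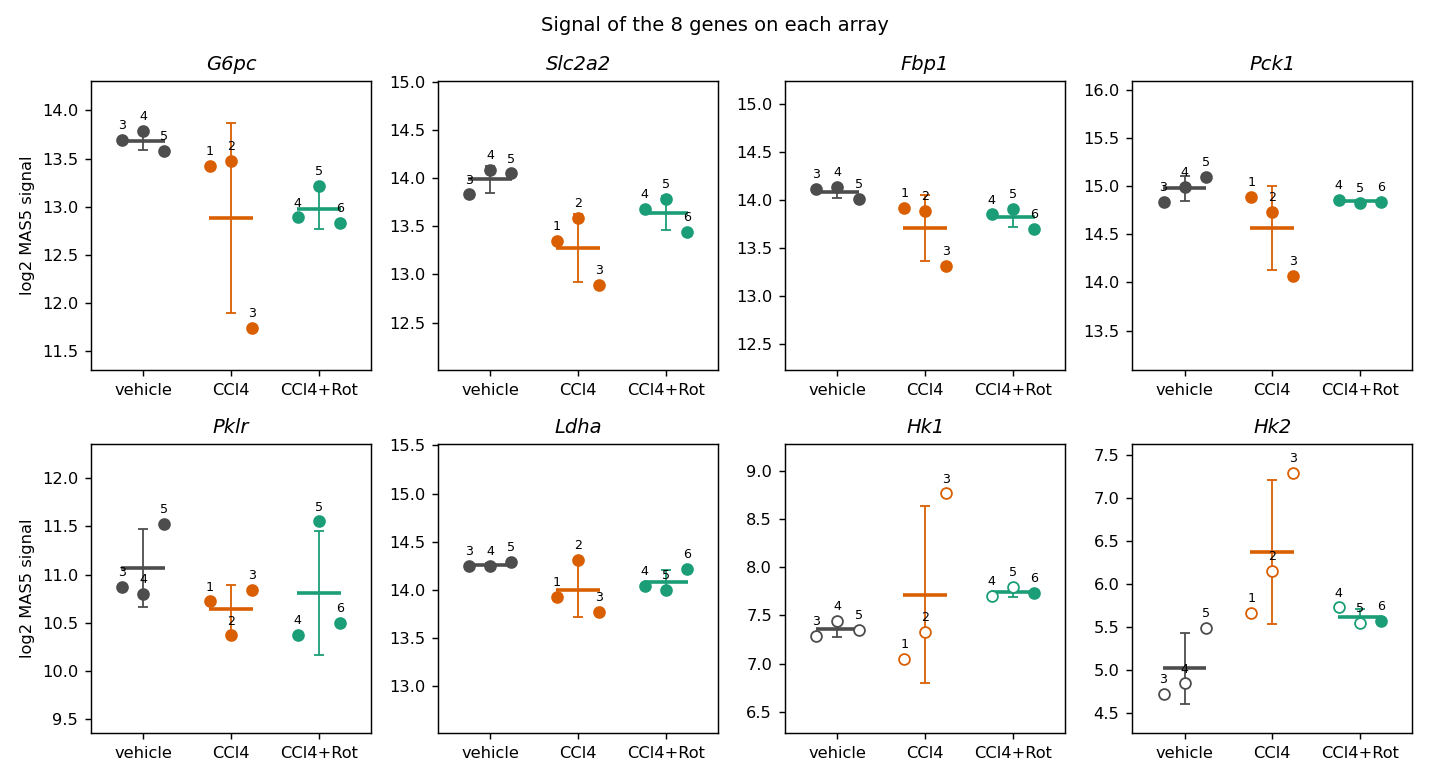
Log2 MAS5 signal (y axis) of each gene on each array by group (x axis), with the replicate number above each point, filled points for arrays called present and open points for those called absent or marginal. Horizontal lines are group means and error bars are SD (n = 3 rats). CCl4 replicate 3 is the lowest of all 9 arrays for G6pc (11.74), Slc2a2, Fbp1, Pck1 and Ldha, and the highest for Hk1 and Hk2.

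On the glycolytic side, Pklr encodes the pyruvate kinase of liver and red cells (chr2:207866630-207874451, + strand). Its brighter probe set gave 10.87, 10.80 and 11.53 in vehicle, 10.72, 10.37 and 10.84 in CCl4 and 10.37, 11.55 and 10.50 in CCl4+Rot rats. Vehicle replicate 5 and CCl4+Rot replicate 5 were the high arrays, and the groups overlapped in every comparison. The mean differences were -0.42 for CCl4 minus vehicle (limma adjusted p = 0.649), 0.17 for CCl4+Rot minus CCl4 and -0.26 for CCl4+Rot minus vehicle, each with an SE of 0.36. With CCl4 replicate 3 left out the first became -0.52 and the second 0.26. Leaving out other arrays moved Pklr as well, since CCl4 minus vehicle was -0.19 without vehicle replicate 5, and CCl4+Rot minus vehicle ran from -0.63 without CCl4+Rot replicate 5 to -0.027 without vehicle replicate 5. The other probe set of the gene gave -0.47, 0.57 and 0.10, so the sign of CCl4+Rot minus vehicle depends on the probe set. Both probe sets were high on the same pair of arrays. The 4 erythroid marker genes measured belong to a cell type that also uses Pklr. They summed to between 14532 and 17205 in signal units in vehicle, 8948 to 11758 in CCl4 and 9684 to 15288 in CCl4+Rot livers. Most of each sum was Hbb (13.78, 14.02 and 13.92 in vehicle and 13.06, 13.47 and 13.07 in CCl4). Of the 4, 3 were lower and 1 higher with CCl4 than with vehicle. The part of these cells in the Pklr values was not tested.

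Ldha (chr1:103974903-103984632, + strand) was the most even member among vehicle rats, with 14.25, 14.25 and 14.29. CCl4 rats read 13.92, 14.31 and 13.77, and CCl4+Rot rats read 14.038, 14.003 and 14.219. CCl4 replicate 2 was the highest of all arrays and overlapped vehicle, whereas all CCl4+Rot arrays were below vehicle. CCl4 minus vehicle was -0.26 (SE 0.18, limma adjusted p = 0.581), CCl4+Rot minus vehicle was -0.18 (SE 0.18, limma adjusted p = 0.905) and CCl4+Rot minus CCl4 was 0.09 (SE 0.18). Leaving out CCl4 replicate 3 gave -0.15 for CCl4 minus vehicle and -0.029 for CCl4+Rot minus CCl4, and leaving out CCl4 replicate 2 instead gave -0.42 for the former.

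The hexokinases were near or under detection. Hk1 (chr20:33703469-33770600, - strand) read 7.29, 7.44 and 7.35 in vehicle, 7.05, 7.33 and 8.77 in CCl4 and 7.70, 7.79 and 7.73 in CCl4+Rot rats, and was called present on CCl4+Rot replicate 6 alone. Its other gene probe set and its 3 control probe sets were present on no array. Hk2 (chr4:178238907-178288251, - strand), the isoform of muscle and growing cells, read 4.72, 4.84 and 5.49 in vehicle, 5.66, 6.15 and 7.29 in CCl4 and 5.72, 5.54 and 5.57 in CCl4+Rot rats, again present on CCl4+Rot replicate 6 alone. No fold is given for either gene, since both were called absent on all vehicle and CCl4 arrays and present on 1 of 3 CCl4+Rot arrays. The CCl4+Rot signals lay above the vehicle signals without overlap (limma adjusted p = 0.911 for Hk1 and 0.821 for Hk2). The highest Hk1 and Hk2 signals of all 9 arrays were on CCl4 replicate 3, where the whole array was brighter at its dim end.

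Across the 8 genes, limma called 0 in each comparison, where it called 0% of all probe sets for CCl4 minus vehicle, 0.00322% for CCl4+Rot minus CCl4 and 0.0258% for CCl4+Rot minus vehicle. At an unadjusted p below 0.05 there was 1 lower member for CCl4 minus vehicle (Slc2a2, against 3.72% of all probe sets) and 1 higher (Hk2, absent on those arrays, against 8.64%). No member reached that level for CCl4+Rot minus CCl4 or CCl4+Rot minus vehicle (6.63% and 8.31% of all probe sets). The 6 genes present on every array were all lower with CCl4 than with vehicle (median log2 difference -0.42), against 51.3% of probe sets present on all 9 arrays. They were all higher with CCl4+Rot than with CCl4 (median 0.14), where 46.2% of such probe sets were lower, and all lower with CCl4+Rot than with vehicle (median -0.26), against 50.9%. Each pair of comparisons shares 1 group of arrays, so these counts are not independent of each other. Without CCl4 replicate 3, all 6 were still lower than vehicle with CCl4, but with a median of -0.21, whereas 3 of them (Slc2a2, Pck1 and Pklr) were higher and 3 (G6pc, Fbp1 and Ldha) lower with rottlerin. Of 11231 probe sets present on all arrays, 5925 were then lower with CCl4 and 6082 higher with rottlerin.

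Groups did not overlap, with CCl4 lower than vehicle, for 3 of the 8 genes (G6pc, Slc2a2 and Fbp1), against 7.14% of all probe sets and 14.2% of those present on all arrays, and Hk2 lay above vehicle, against 11.1%. Without CCl4 replicate 3 they did not overlap for 4 (the same genes and Pklr), against 14.8% of all probe sets and 21.4% of those present on all arrays. For CCl4+Rot below vehicle it was 4 of 8 (the same genes and Ldha), against 9.15% and 14.2%, and Hk1 and Hk2 lay above vehicle, against 11.9%. For CCl4+Rot against CCl4 it was 0 of 8, against 11.6%. With CCl4 replicate 3 left out, Hk1 lay above CCl4 (against 12% of all probe sets) and G6pc below it (against 10.8%). With 3 arrays against 3 the smallest p of an exact two-sided permutation test is 0.1. The limma p-values set each difference against the spread between rats within groups, estimated over all 3 groups together. In whole liver, fewer hepatocytes and less RNA per hepatocyte cannot be told apart.

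**Figure D2:**
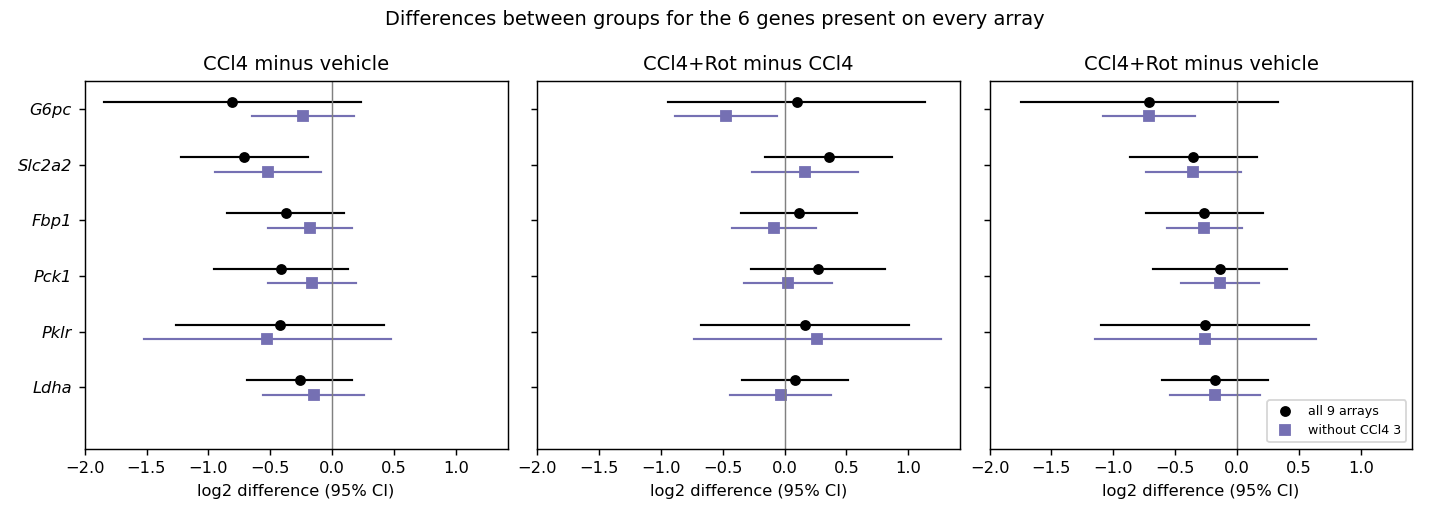
Log2 differences (x axis) with 95% confidence intervals for the 6 genes present on every array (y axis), one panel per comparison, over all 9 arrays (black circles) and without CCl4 replicate 3 (purple squares). Only Slc2a2 in CCl4 minus vehicle has an interval below 0 over all arrays (-1.22 to -0.20), and G6pc in CCl4+Rot minus CCl4 changes sign from 0.10 to -0.47.

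The members did not deviate alike on CCl4 replicate 3. Compared with the mean of the other 8 arrays, Ldha was lower by 0.39, close to the median of -0.44 for probe sets of its brightness, and Fbp1 by 0.62, inside the 10th percentile of -0.67. Slc2a2 was lower by 0.84 and Pck1 by 0.81, both beyond their 10th percentiles (-0.67 and -0.64), and G6pc by 1.62. Pklr was level with the other arrays (a difference of 0.00). The signals of the 9 hepatocyte markers measured summed to between 278283 and 314180 in vehicle and 293484 and 308917 in CCl4+Rot. The sum was 211602 on CCl4 replicate 3, the lowest of the CCl4 group, whose highest was 303414. With that array left out, 5 of these markers were higher and 4 lower with CCl4 than with vehicle (median 0.03). The part of this array's compression in each member's value was not tested.

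**Figure D3:**
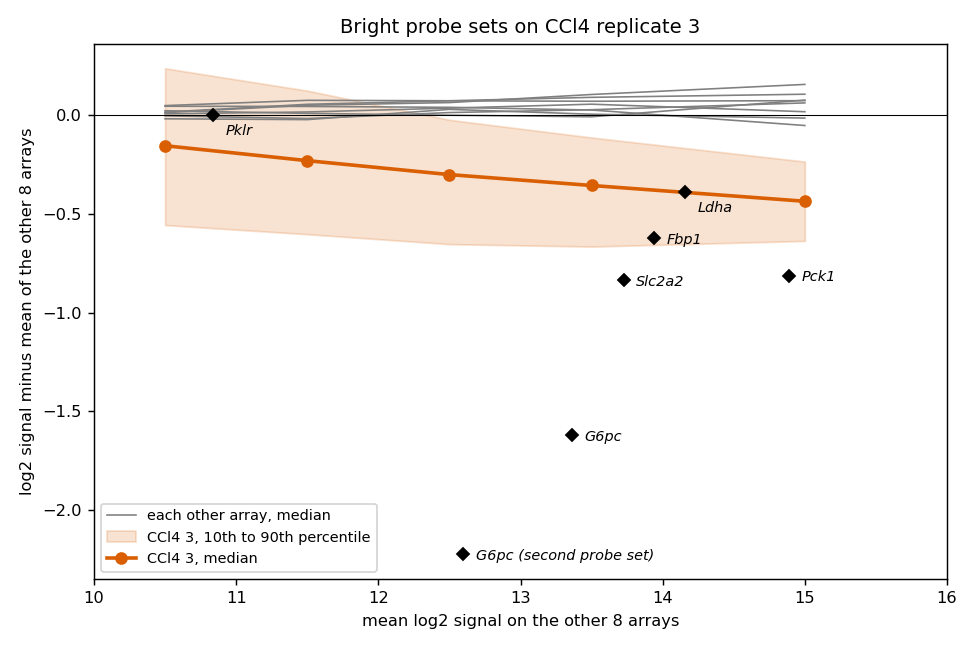
For each window of mean log2 signal on the other 8 arrays (x axis), the median log2 difference of an array from the mean of the other 8 (y axis), in orange for CCl4 replicate 3 with the 10th to 90th percentile shaded and in grey for each other array. Diamonds are members on CCl4 replicate 3. The orange line falls from -0.15 to -0.44, Ldha lies on it, and the G6pc probe sets lie at -1.62 and -2.22.

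Marker signals of other cell types were summed in the same livers. The 10 myofibroblast markers summed to between 8315 and 13876 in vehicle, 20482 to 34992 in CCl4 and 30274 to 37971 in CCl4+Rot livers, without overlap between vehicle and the others. The 9 macrophage markers measured summed to between 20863 and 26685, 24989 to 32326 and 32427 to 38443. The 7 cholangiocyte markers measured had sums of 4179 to 5445 in vehicle, 5904 to 8362 in CCl4 and 5209 to 7308 in CCl4+Rot. The 7 endothelial markers measured had sums of 7625 to 7853, 6822 to 7160 and 7355 to 7762. For both lists, the sums of vehicle and CCl4 did not overlap. In the cholangiocyte list, Spp1 was called absent on all vehicle arrays (5.92, 6.42 and 6.26). It read 12.11, 9.90 and 11.58 in CCl4, and the separation of the cholangiocyte sums rested on this gene. Cdh1 read 12.04, 11.91 and 11.54 in vehicle and 11.41, 11.46 and 11.74 in CCl4. Of the 7 cholangiocyte markers, 5 were higher and 2 lower with CCl4 than with vehicle. The 8 lymphocyte markers measured had sums of 1133 to 1793, 1341 to 2687 and 1965 to 2948, with vehicle and CCl4+Rot apart. Much of each sum was Ptprc, the only 1 of the 8 present on all arrays and the brightest on each. Ptprc read 10.26, 9.42 and 9.45 in vehicle and 10.88, 10.44 and 11.12 in CCl4+Rot, so the separation says little about the dimmer markers. Krt7 of the cholangiocyte list, Cd3d, Cd8a and Cd4 of the lymphocyte list and Ahsp of the erythroid list were called present on no array. The 8 cell cycle markers summed to between 500 and 679 in vehicle, 997 to 3403 in CCl4 and 894 to 1461 in CCl4+Rot livers, with the highest sum on CCl4 replicate 3. The part of these cells in the members' values was not tested.

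Beyond the members, 72 of 81 listed genes of glucose, glycogen and pyruvate metabolism could be read by a probe set that names them alone, and 52 of them were present on all arrays. Limma called none in any comparison. For CCl4 minus vehicle, 7 were higher and 11 lower at an unadjusted p below 0.05, against 8.64% and 3.72% of all probe sets, and the median over the list was 0.00. The numbers were 3 and 1 for CCl4+Rot minus CCl4 (median 0.08) and 2 and 3 for CCl4+Rot minus vehicle (median 0.08), against 6.63% and 8.31% of all probe sets in either direction. With CCl4 replicate 3 left out they were 6 and 6 of 72 for CCl4 minus vehicle, against 1972 and 1601 of all 31042 probe sets. For CCl4+Rot minus CCl4 they were then 2 and 1, against 1140 and 895. Of 11 genes that bring carbon into gluconeogenesis, 8 were lower with CCl4 (median -0.47), and 8 of 9 glycogen genes were lower (median -0.42). Counting only genes present on all arrays, 8 of 10 and 7 of 7 were lower (medians -0.48 and -0.42), where 51.3% of probe sets present on all arrays were lower. Without CCl4 replicate 3 the counts over the full lists were again 8 and 8, with medians of -0.30 and -0.40. Of 11231 probe sets present on all arrays, 5925 were then lower. Of 11 genes of the reversible steps shared by both directions, 6 were higher and 5 lower (median 0.04). Of the 7 of them present on all arrays, 5 were higher and 2 lower.

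Ugp2, which makes the UDP-glucose used for glycogen, showed the clearest difference of the pathway. It read 14.05, 14.64 and 14.07 in vehicle, 13.24, 13.17 and 13.33 in CCl4 and 13.86, 13.63 and 13.75 in CCl4+Rot rats. All 3 groups were separate, with CCl4 lowest and CCl4+Rot between. CCl4 minus vehicle was -1.01 (SE 0.20, limma adjusted p = 0.202), a 2.01-fold lower signal, and -1.05 without CCl4 replicate 3. The robust limma fit called this difference (adjusted p = 0.0121). CCl4+Rot minus CCl4 was 0.50 (SE 0.20, limma adjusted p = 0.749), and 0.54 without that array.

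Slc37a4, the transporter that carries glucose 6-phosphate to glucose-6-phosphatase, read 13.22, 13.46 and 13.47 in vehicle, 12.70, 12.96 and 12.25 in CCl4 and 13.01, 12.94 and 12.61 in CCl4+Rot rats. Vehicle lay above both other groups. The CCl4 difference from vehicle was -0.75 (SE 0.23, limma adjusted p = 0.288) and -0.55 without CCl4 replicate 3, and CCl4+Rot minus vehicle was -0.53 (SE 0.23, limma adjusted p = 0.602). Gpt, the alanine aminotransferase that supplies pyruvate from alanine, read 11.149, 13.003 and 12.257 in vehicle, 10.97, 10.94 and 10.29 in CCl4 and 11.52, 10.58 and 10.55 in CCl4+Rot rats. CCl4 was below vehicle without overlap, with a difference of -1.40 (SE 0.50, limma adjusted p = 0.340), and of -1.18 without CCl4 replicate 3. Aldoa, an aldolase that is low in normal hepatocytes, was higher than vehicle without overlap in both CCl4 groups, by 0.61 (SE 0.22, limma adjusted p = 0.346) and 0.60 (SE 0.22, limma adjusted p = 0.517).

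Pc, pyruvate carboxylase, the first step of gluconeogenesis from pyruvate, read 11.89, 11.67 and 11.23 in vehicle, 10.98, 11.42 and 10.97 in CCl4 and 11.71, 11.75 and 11.84 in CCl4+Rot rats. The CCl4+Rot arrays were all above the CCl4 arrays, by 0.64 on average (SE 0.22, limma adjusted p = 0.724). It was 0.56 without CCl4 replicate 3. Pdk2, a kinase that shuts off pyruvate dehydrogenase, was 0.73 higher in CCl4+Rot than in CCl4 (SE 0.28, limma adjusted p = 0.747), with overlap, but 0.46 higher without CCl4 replicate 3, on which it was called absent. Pdk3 was 1.03 higher in CCl4+Rot than in vehicle (SE 0.33, limma adjusted p = 0.438). It was dim in vehicle (6.17, 5.99 and 6.89) and called absent on vehicle replicate 5. Pdp2, a phosphatase that turns the same enzyme on, was 0.76 higher in CCl4 than in vehicle (SE 0.23, limma adjusted p = 0.288), and 0.96 higher without that array. Among monocarboxylate carriers, Slc16a7 was lower than vehicle by 0.69 in CCl4 and by 0.58 in CCl4+Rot on average, without overlap in either, and Slc16a3 differed by -1.13 between CCl4+Rot and CCl4, or by -0.54 without CCl4 replicate 3. Fbp2, the muscle fructose-bisphosphatase, was called absent throughout, so no fold is reported for it.

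Of 48 listed regulators and responsive genes, 47 were measured and limma called none. Among the 19 transcriptional and hormonal regulators, 13 were lower with CCl4 than with vehicle (4 at an unadjusted p below 0.05) and 13 were higher with CCl4+Rot than with CCl4 (3 at that level). Among probe sets present on all arrays 51.3% were lower in the first comparison and 46.2% lower in the second, and 3.72% of all probe sets were lower at that level in the first and 6.63% differed in either direction in the second. Of the 15 of these regulators present on all arrays, 11 were lower in the first comparison and 12 higher in the second. Without CCl4 replicate 3 the counts over all 19 were 14 and 13. Of 11231 probe sets present on all arrays, 5925 were then lower in the first comparison and 6082 higher in the second. Cebpa, a hepatocyte transcription factor that acts on Pck1 and G6pc, read 12.37, 12.08 and 12.28 in vehicle, 11.45, 11.26 and 11.92 in CCl4 and 12.62, 12.47 and 12.49 in CCl4+Rot rats. All CCl4 arrays were lowest and all CCl4+Rot arrays highest. The differences were -0.70 for CCl4 minus vehicle (SE 0.21, limma adjusted p = 0.280) and 0.98 for CCl4+Rot minus CCl4 (SE 0.21, limma adjusted p = 0.608), and without CCl4 replicate 3 they were -0.89 and 1.17.

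Nr3c1, the glucocorticoid receptor, read 11.99, 11.81 and 11.67 in vehicle, 11.21, 10.87 and 11.09 in CCl4 and 11.64, 12.03 and 11.36 in CCl4+Rot rats. CCl4 was below both other groups, which overlapped each other. CCl4 minus vehicle was -0.77 (SE 0.22, limma adjusted p = 0.261), and CCl4+Rot minus CCl4 was 0.62 (SE 0.22, limma adjusted p = 0.724). These were -0.78 and 0.64 with CCl4 replicate 3 left out. Onecut1, a liver-enriched factor, varied widely, with 11.16, 9.42 and 11.31 in vehicle, 9.75, 8.13 and 9.47 in CCl4 and 11.63, 12.46 and 10.75 in CCl4+Rot rats. The CCl4+Rot arrays lay above all CCl4 arrays, 5.66-fold on average (SE of the log2 difference 0.69, limma adjusted p = 0.650), and by 2.68 on the log2 scale without CCl4 replicate 3. A higher signal of these regulators in CCl4+Rot than in CCl4 rats stood beside a G6pc difference whose sign changed with CCl4 replicate 3 or CCl4+Rot replicate 5 left out. These regulators were named for their small p, and a link between them and G6pc was not tested.

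Ndrg1, which responds to hypoxia and stress, read 8.18, 7.65 and 7.91 in vehicle, 8.95, 8.95 and 9.12 in CCl4 and 8.98, 8.82 and 9.22 in CCl4+Rot rats. Vehicle was below both other groups, by 1.09 for CCl4 (SE 0.20, limma adjusted p = 0.186; robust fit 0.0202) and by 1.10 for CCl4+Rot (SE 0.20, limma adjusted p = 0.191; robust fit 0.0192). Cpt1a, which admits fatty acids into mitochondria in fasting, was lower in CCl4 than in vehicle by 1.06 on average (SE 0.29, limma adjusted p = 0.252; robust fit 0.0426) without overlap, and by 0.78 without CCl4 replicate 3. Angptl4, a fasting-induced secreted protein, was 1.22 lower in CCl4+Rot than in vehicle (SE 0.36, limma adjusted p = 0.390). Adm, a hypoxia-responsive peptide gene, was 1.23 higher (SE 0.40, limma adjusted p = 0.440), and Elovl6, a lipogenic gene, was 1.01 higher with overlap (SE 0.42). Of 9 hypoxia-responsive genes measured, 5 were higher and 4 lower with CCl4 than with vehicle, and 4 and 5 with CCl4+Rot. At an unadjusted limma p below 0.05, 1 was higher and 2 lower with CCl4, against 8.64% and 3.72% of all probe sets. With CCl4+Rot, 2 were higher and 0 lower at that level, against 8.31% in either direction. Tmem97, a sterol-responsive gene, was 0.67 higher in CCl4 than in vehicle (SE 0.20, limma adjusted p = 0.280). Of 8 fasting-responsive genes, 4 were higher and 4 lower with CCl4 than with vehicle, and 2 and 6 with CCl4+Rot. Of the 6 present on all arrays, 2 were higher and 4 lower with CCl4, and 1 and 5 with CCl4+Rot. At an unadjusted limma p below 0.05, 0 of the 8 were higher and 3 lower with CCl4. With CCl4+Rot, 1 was higher and 1 lower at that level. Of 11 feeding-responsive genes, 8 were higher and 3 lower with CCl4, and again 8 and 3 with CCl4+Rot. Of the 10 present on all arrays, 7 were higher and 3 lower with CCl4, and 8 and 2 with CCl4+Rot. At that level, 3 of the 11 were higher and 0 lower with CCl4, and 1 and 0 with CCl4+Rot. The shares of all probe sets were 8.64% and 3.72% with CCl4, and 8.31% in either direction with CCl4+Rot. Without CCl4 replicate 3 the CCl4 counts were 0 and 1 for fasting and 3 and 0 for feeding. Of all 31042 probe sets, 1972 were then higher and 1601 lower. Among probe sets present on all arrays, 51.3% were lower with CCl4 and 50.9% with CCl4+Rot. The part of feeding in these values was not tested. Acacb was present on 1 array and Acot1 on 3, and neither is given a value here.

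**Figure D4:**
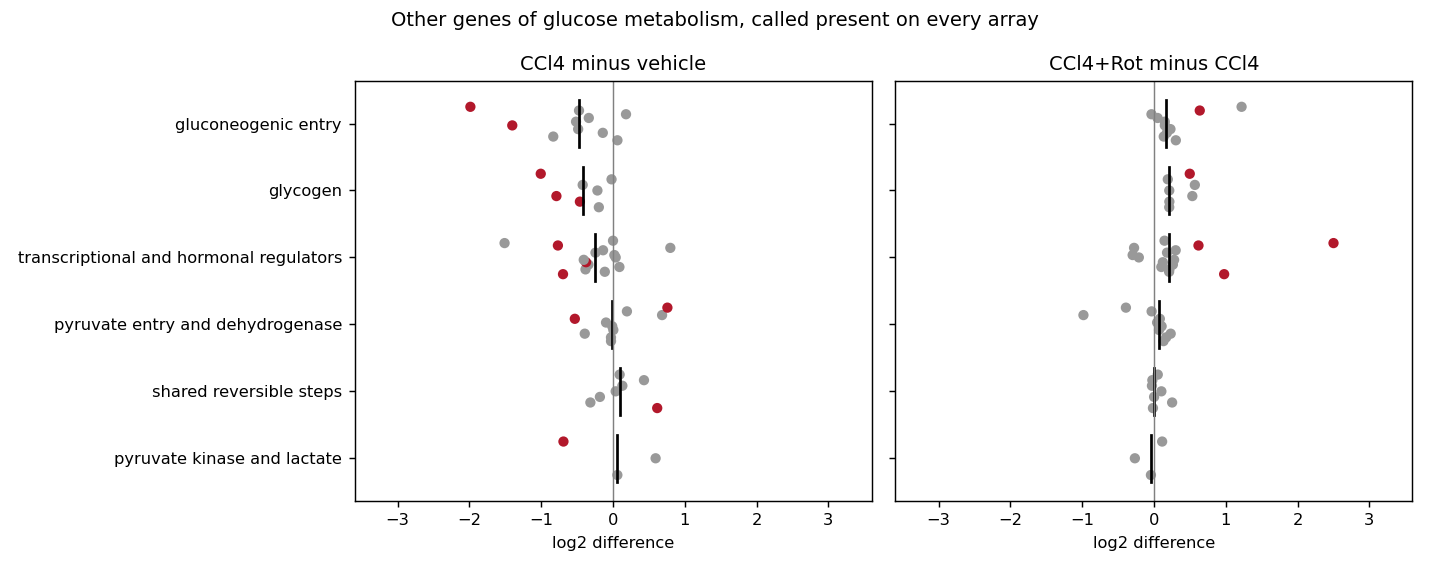
Log2 difference (x axis) of listed genes present on all 9 arrays, for CCl4 minus vehicle (left) and CCl4+Rot minus CCl4 (right). The y axis holds a selection of the gene groups, and the others are not drawn. Drawn are gluconeogenic entry, glycogen, pyruvate entry and dehydrogenase, shared reversible steps, pyruvate kinase and lactate, and the transcriptional and hormonal regulators. Each point is 1 gene, red where the unadjusted limma p was below 0.05, and black bars are medians. The gluconeogenic entry (-0.48) and glycogen (-0.42) medians lie below 0 on the left, and Onecut1, a regulator, is the rightmost red point on the right.

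The genes whose signals ran closest to each member over the 9 arrays were taken from 7058 genes present on all of them, by Pearson r as a description. G6pc ran closest to Tat, tyrosine aminotransferase (r = 0.979, and 0.932 without CCl4 replicate 3), and to Ppp1r7 (0.976 and 0.992). Slc2a2 was closest to Adk (0.976 and 0.946) and Tspan31 (0.972 and 0.957), Fbp1 to Ndufs7 (0.972 and 0.920) and Cast (0.960 and 0.854), and Pck1 to ND3 (0.978 and 0.882) and Fabp1 (0.978 and 0.925). Pklr was closest to Nr3c2 (0.949 and 0.982) and Cyp4b1 (0.923 and 0.931), and Ldha to Adcy6 (0.9502 and 0.9301) and Ubac1 (0.937 and 0.947). The signals of Hk1 followed Gemin5 (0.983 and 0.925) and Gemin7 (0.978 and 0.905), and those of Hk2 followed Cep70 (0.969 and 0.951) and Stt3a (0.964 and 0.892). Among the members, G6pc and Fbp1 ran together with and without CCl4 replicate 3 (0.974 and 0.909), whereas G6pc and Pck1 did so mainly with it (0.868 and 0.388). All these points share the same 9 arrays and their scaling.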

How the data were processed

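Each liver was measured on 1 Affymetrix rat array. The authors deposited log2 signals and detection calls, made with MAS5 and affy according to the submitters' processing notes (versions not given in the sources used here). The antilogs had a 2% trimmed mean of 500 on every array. Signals were used as deposited, without 57 control probe sets. For the other 31042, limma 3.58.1 (R 4.3.3, statmod 1.5.0) fitted 3 group means without covariates, with Benjamini-Hochberg adjustment over all of them. Calls needed an adjusted p below 0.05 and a difference of 1.5-fold or more.

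Genes were read by their brightest probe set naming 1 symbol. G6pc has none, so its brightest probe set was used. No fold is given where both groups lacked a present call. The members and lists were chosen with earlier results of these data known. Named were all members, the 10 pathway or regulator genes with the smallest p in each comparison, any gene called, and the 2 genes closest to each member. Fits were tested on simulated data. Alternatives changed the scaling, filter, fit, probe set, block and arrays. A gene of the pathway list is not reported here.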

Additional observations from a re-analysis of the deposited data

How the results depend on the processing

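Over 216 log2 differences of members under settings that changed the scaling, filter, fit, block or probe set, 1 of them also without CCl4 replicate 3, 207 kept their direction and side of the threshold. CCl4+Rot minus CCl4 reversed for Ldha under quantile normalization (-0.028), for G6pc, Fbp1 and Ldha in the robust fit without CCl4 replicate 3 (-0.47, -0.082 and -0.029) and for the same genes with array weights (-0.34, -0.016 and -0.13). CCl4+Rot minus vehicle of Pklr reversed with its second probe set (0.10). The robust fit without CCl4 replicate 3 called 1 member, G6pc, for CCl4+Rot minus vehicle (-0.71). That fit, the array weights and the second probe sets were chosen after seeing the data.

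With 1 array left out, members called and pathway genes called were 0 to 0 in each comparison, and probe sets called were 0 to 0 for CCl4 minus vehicle, 0 to 2 for CCl4+Rot minus CCl4 and 0 to 24 for CCl4+Rot minus vehicle, the highest counts without CCl4 replicate 2. CCl4+Rot minus CCl4 reversed without CCl4 replicate 3 for G6pc (-0.47), Fbp1 (-0.082) and Ldha (-0.029), and without CCl4+Rot replicate 5 for G6pc (-0.022) and Pklr (-0.21). It ranged from -0.47 to 0.39 for G6pc, from -0.082 to 0.22 for Fbp1, from -0.21 to 0.38 for Pklr and from -0.029 to 0.24 for Ldha.

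Probe sets called for CCl4 minus vehicle were 4 without the dimmest 30%, 78 with at least 3 present calls, 348 in the robust fit and 313 in it without CCl4 replicate 3. Pathway genes called were 1 (Ugp2) and 2 in the last pair. For CCl4+Rot minus CCl4, probe sets called were 0 under quantile normalization, both filters, only the groups compared and the adjusted methods' t-test, and 11 in the robust fit without CCl4 replicate 3. For CCl4+Rot minus vehicle they were 3 under quantile normalization, 2 with centred arrays, 22 and 63 under the filters, 1 with only the groups compared, 241 and 365 in the robust fits, 0 by the adjusted t-test and 73 with array weights. The causes were not tested. The median of all probe sets for CCl4 minus vehicle was 0.18 as deposited, -0.024 after quantile normalization and -0.18 after centring.

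The replicate numbers in the labels mark different animals, and same-numbered arrays did not deviate together (r from 0.02 to 0.07). With the number as a random block, members called were 0 in each comparison and probe sets called were 0, 1 and 8.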
